A study of Citrus reticulata with 36 samples.

Results

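The 120 features described here were chosen for a difference between 18 and 32 days after pollination (DAP) in the integument of mandarin ovules, together with a small difference between the same stages in the nucellus. They were taken from 128861 features of a read count table for Citrus reticulata, 60 with a higher and 60 with a lower integument median at 32 DAP. These are named rising and falling members below, as names for the sign of the difference that chose them and not as test results. The counts came from RNA of cells cut out of ovule sections with a laser. Nucellus and integument were each captured at 18, 28 and 32 DAP in the ponkan cultivars Huagan No.4, labelled MT, and Egan No.1, labelled WT. The labels do not say what MT stands for and call the replicates biological without saying whether they came from separate plants, so that p-values measure the spread between these libraries. Each of the 12 groups of tissue, stage and cultivar held 3 libraries, 36 in all, and no treatment is given for any of them.

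In an ovule the nucellus is the maternal tissue around the embryo sac, and the integuments are the layers that enclose it and later form the seed coat. After pollination the integument of many seed plants passes from division and expansion to the building and hardening of a coat. In polyembryonic citrus the nucellus is also the tissue in which maternal, asexual embryos start. The table pairs its identifiers with no gene names, so no role can be given for any member, and no sequence is shown. Its column names give the stage as a digit from 1 to 3, which was read as 18, 28 and 32 DAP in the order of the design text. Every DAP below rests on that reading.

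Total counts per library ran from 12687779 to 20947644, and all 120 members passed the filter on low counts that left 57344 features for testing. In captured tissue, fewer cells of a type and less RNA per cell cannot be told apart. WT nucellus at 28 DAP, replicate 1, stood apart from the other nucellus libraries. It had counts of 0 for 9 rising and 14 falling members. Every other library had at most 8 members of a set at 0. The rule did not use that library.

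The rule worked on L, the log2 of CPM plus 1, where CPM is the count rescaled so that every library has the same total, and on M, the median L of the 3 libraries of a group. D was M at 32 DAP minus M at 18 DAP. A highest integument M of at least 2.6 was met by 32445 features, and 14853 of these had an absolute D under 0.4 in the nucellus of both cultivars. The sign of the integument D was the same in MT and WT for 7557 of them, or 50.9%, with 3588 upward and 3969 downward, and it was opposite or 0 for 7296. Over all 3588 upward features the smaller D of MT and WT had a median of 0.132, against 0.888 in the 60 rising members. Over the 3969 downward features it was 0.137 in size, against 1.043 in the 60 falling members. The members were chosen by these integument and nucellus differences, which are therefore given as a description. The limit cut through a continuous range: the last rising member had a smaller D of 0.716 and the first feature left out 0.714, and in the falling set both were 0.832 in size.

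**Figure D1:**
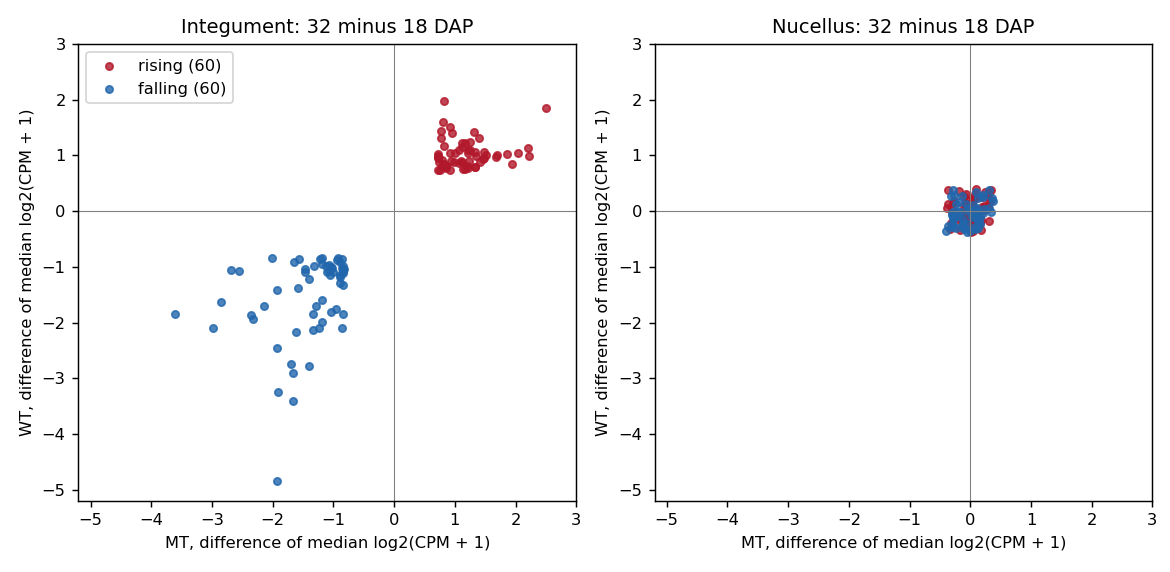
Each point is 1 of the 120 members, with the difference of the median log2(CPM + 1) between 32 and 18 DAP in MT on the x axis and in WT on the y axis, for the integument (left) and the nucellus (right). The integument values have the same sign in both cultivars and the nucellus values within 0.4 of 0 because the rule chose them so, and in WT the falling members reach -4.841 and the rising members 1.982.

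Differences of the falling members were larger and more uneven than those of the rising members. In MT the integument D of the falling members ran from -3.612 to -0.832 with a median of -1.205, and in WT from -4.841 to -0.834 with a median of -1.171. The rising members ran from 0.716 to 2.507 in MT, with a median of 1.124, and from 0.737 to 1.982 in WT, with a median of 0.985. The spread between libraries of a group was of similar size. The pooled SD of L within the integument groups had a median of 0.711 over the rising and 0.766 over the falling members, against 0.334 over the 7557 features that passed the other criteria. In the nucellus it was 0.538 and 0.382, against 0.401.

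The first rising member, c30642_g1, had integument values at 18 DAP of 1.18, 1.92 and 0.2 CPM in MT and 2.44, 3.96 and 0.31 CPM in WT. At 28 DAP it had 3.83, 3.84 and 4.74 CPM in MT and 1.58, 8.74 and 9.1 CPM in WT. At 32 DAP it had 15.07, 11.4 and 4.78 CPM in MT and 12.86, 8.62 and 11.39 CPM in WT. All 6 libraries of 32 DAP lay above all 6 of 18 DAP, and the 28 DAP libraries, from 1.58 to 9.1 CPM, overlapped both. In the nucellus c30642_g1 ran from 0 to 12.8 CPM, with group means of 4.13 ± 3.04 CPM at 18 DAP and 5.31 ± 1.14 CPM at 32 DAP in MT, and of 3.46 ± 2.81 and 6.63 ± 5.36 CPM in WT (SD, n = 3 each). Libraries of one nucellus group of this feature differed more than the group means did.

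The rising member ranked next, c4478_g1, had integument means of 4.25 ± 2.14 CPM at 18 DAP, 7.36 ± 5 CPM at 28 DAP and 9.74 ± 5.99 CPM at 32 DAP in MT (SD, n = 3 each). Its WT means were 4.18 ± 1.45, 4.87 ± 1.52 and 10.96 ± 2.2 CPM. The MT libraries overlapped, since replicate 3 of 32 DAP held 2.91 CPM and the 18 DAP libraries 4.31, 6.36 and 2.09 CPM, whereas in WT the lowest library of 32 DAP, 8.66 CPM, lay above the highest of 18 DAP, 5.83 CPM. Its nucellus libraries were low at every stage, from 0.27 to 4.58 CPM.

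The first falling member, c53666_g1, had 12.57, 5.63 and 18.38 CPM in the MT integument at 18 DAP, 5.17, 3.69 and 5.2 CPM at 28 DAP and 1.51, 0.18 and 0.73 CPM at 32 DAP. In WT it had 16.31, 3.87 and 9.64 CPM at 18 DAP, 5.3, 1.6 and 13.32 CPM at 28 DAP and 8.97, 1.18 and 1.5 CPM at 32 DAP. The MT groups of 18 and 32 DAP did not overlap, and the WT groups did through replicate 1 of 32 DAP. This feature was close to absent from the nucellus, where the 18 libraries ran from 0 to 0.9 CPM. Its nucellus M at 18 DAP was 0.375 in MT and 0.097 in WT, under the limit of 0.4, so that no fall could have passed the limit.

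The falling member ranked next, c90448_g1, was at 47.76, 25.84 and 57.04 CPM in the MT integument and 23.25, 31.46 and 33.58 CPM in the WT integument at 18 DAP. At 32 DAP it was at 8.72, 5.61 and 18.23 CPM in MT and 11.58, 7.49 and 5.59 CPM in WT, with no overlap between the stages. At 28 DAP the MT libraries, at 7.2, 11.53 and 8.1 CPM, were as low as at 32 DAP, and the WT libraries were at 28.31, 7.6 and 16.94 CPM. The nucellus also expressed this feature, from 4.29 to 35.95 CPM. Its MT nucellus mean was 20.4 ± 14.3 CPM at 18 DAP, 8.48 ± 1.06 CPM at 28 DAP and 13.35 ± 5.06 CPM at 32 DAP (SD, n = 3 each), raised at 18 DAP by replicate 3 with 35.95 CPM.

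**Figure D2:**
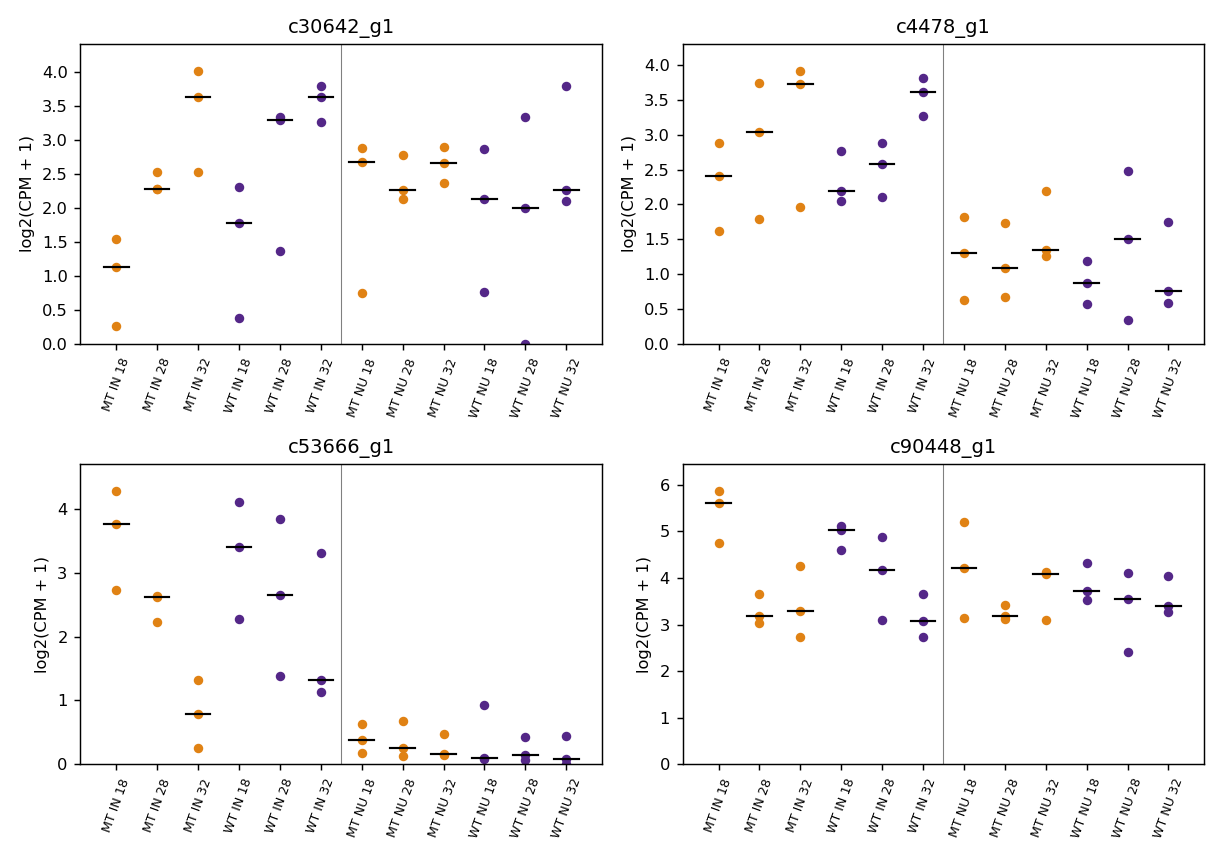
Each panel shows log2(CPM + 1) of 1 member in all 36 libraries, with integument (IN) groups left of the grey line, nucellus (NU) groups right of it, points for the 3 libraries of a group (MT orange, WT purple), bars for their median, and the stage in DAP after the group name. The upper panels are the first 2 rising and the lower panels the first 2 falling members, and c53666_g1 stays at or under 0.9 CPM in all nucellus libraries.

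Over the whole sets the libraries of 18 and 32 DAP often overlapped. All 3 libraries of 32 DAP lay above all 3 of 18 DAP within both cultivars for 12 of the 60 rising members, and this held for 0.535% of all tested features. The reverse held for 14 of the 60 falling members and for 0.635% of all tested features. With edgeR's quasi-likelihood test on the contrast that the rule had used, 2 of the 120 members were called at an adjusted p under 0.05, and so were 16 features or 0.0279% of those tested, 0.0122% upward and 0.0157% downward. At an unadjusted p under 0.05 it picked 44 rising and 48 falling members and 9.47% of all tested features. The 2 members called after adjustment were falling members, c17489_g1 with a log2 fold change of -2.15 and c23050_g1 with -4.59. They are named here after their values were seen. The nucellus D of c17489_g1 was also downward, -0.392 in MT and -0.353 in WT, close to the limit of 0.4 in size. For c23050_g1 the WT integument counts at 32 DAP were 2, 0 and 1. On the integument contrast DESeq2 called 25 members, and limma called 21 on log2(FPKM + 1) and 12 on log2(FPKM + 0.1). Leaving out 1 library moved the edgeR count between 0 members, for example without MT integument at 18 DAP, replicate 3, and 11 members, without WT integument at 28 DAP, replicate 1. Over all tested features the count ran from 1 to 56 under these omissions. In the nucellus the same contrast called 0 members (edgeR; 5 of 120 at an unadjusted p under 0.05, all falling members; 0 with DESeq2 or limma) and 0.0924% of all tested features, 0.0453% upward and 0.0471% downward, with 8.62% at an unadjusted p under 0.05. Its fitted log2 fold change was above 0 for 45 of the 60 rising members and below 0 for 15, with a median of 0.21. The lowest rising value was -0.5 and the highest 1.55. Of the 60 falling members, 37 were below 0 and 23 above it, and their median was -0.14. Among upward features that passed the other criteria, 2222 of 3588 were above 0, with a median of 0.05. Among the downward ones 2698 of 3969 were below 0, with a median of -0.09. Single falling members reached -3.91 downward and 3.7 upward in this fit, although the rule kept their nucellus D under 0.4 in size. The difference between the tissues in this stage difference was called for 0 of the 120 members and for 1 tested feature, or 0.00174% (edgeR; 35 of 120 members and 3.4% of all tested features at an unadjusted p under 0.05; 1 member each with DESeq2 and with limma on either FPKM scale). Nothing is read from these counts, since the contrast chose the members, and the members are described by their rule.

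Levels in the nucellus differed between the sets. The median M over the rising members was between 2.597 and 3.07 in the 6 nucellus groups, within the range of their integument groups, from 2.025 to 3.499. For the falling members it was between 0.611 and 1.268 in the nucellus and between 2.198 and 3.777 in the integument. All 6 nucellus medians were under 1 CPM for 25 of the 60 falling and 7 of the 60 rising members. For 28 falling members the nucellus M at 18 DAP was lower in both cultivars than the smaller integument D itself, so a fall of the integument's size could not have shown in the nucellus. The nucellus M at 18 DAP was under 0.4 in both cultivars for 15 of the falling members, which then could not have exceeded the limit downward.

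Summed over a set, the rising members took between 187.5 and 494 CPM of the integument libraries at 18 DAP, between 266 and 661.8 CPM at 28 DAP and between 547 and 1077.6 CPM at 32 DAP. In the nucellus they took 546.3 to 950.1 CPM at 18 DAP and 880.6 to 1334.9 CPM at 32 DAP. The falling members took 846.8 to 2575.2 CPM of the integument libraries at 18 DAP and 413.3 to 1042.5 CPM at 32 DAP, and between 178.8 and 610 CPM of any nucellus library. Integument sums of the rising members did not overlap between 18 and 32 DAP, and those of the falling members did, through WT replicate 2 of 18 DAP. Of the mean sum, 15.5% came from a single rising member and 25.3% from a single falling member.

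The 28 DAP integument libraries entered the rule through the floor alone, since the highest integument M could be that of 28 DAP. All 120 members met the floor at 18 or 32 DAP, but features meeting it at 28 DAP alone could compete for the 60 places of a set, and without WT integument at 28 DAP, replicate 1, 119 members were chosen again. D itself did not use 28 DAP. In WT the 28 DAP median lay between those of 18 and 32 DAP for 36 of the 60 rising and 38 of the 60 falling members. In MT it did so for 35 rising members but for only 17 falling members, and for 41 falling members it was lower at 28 than at 32 DAP. On a scale of 0 at 18 DAP and 1 at 32 DAP, the median position of 28 DAP was 0.68 in MT and 0.275 in WT for the rising members, and 1.335 in MT and 0.38 in WT for the falling members. These positions use the chosen ends and are a description.

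Single libraries of 28 DAP were far apart in WT. The median L of the falling members was 3.539, 2.262 and 3.693 in the WT integument libraries of replicates 1, 2 and 3, and 2.873, 2.176 and 2.366 in those of MT. For the rising members it was 2.118, 3.241 and 2.693 in WT and 2.651, 2.659 and 2.926 in MT. WT replicate 2 was the low library in the falling and the high one in the rising set, and it lay within the range of the 32 DAP libraries in both. WT replicate 1 was inside the range of the 18 DAP libraries in both sets. At 32 DAP, WT replicate 1 had 3.256 for the falling members against 2.027 and 2.006 in replicates 2 and 3, and the MT libraries had 2.47, 2.696 and 2.729.

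**Figure D3:**
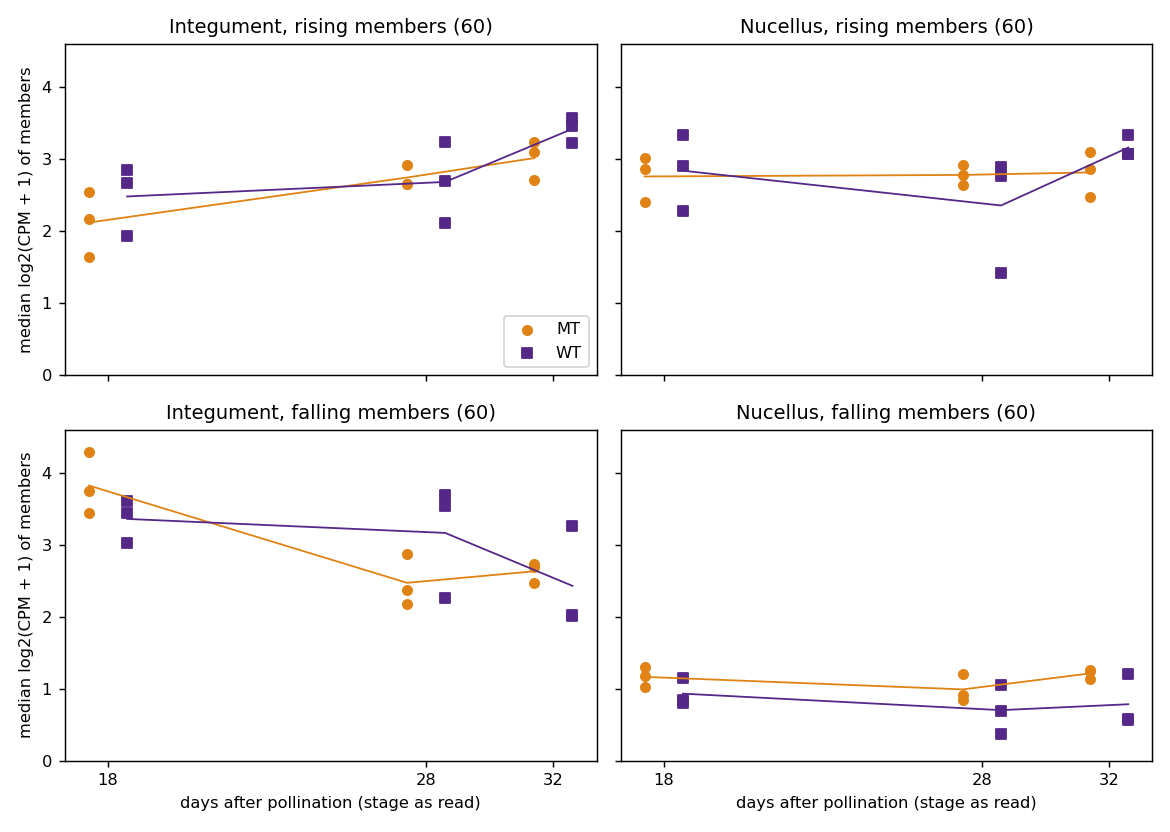
Each point is the median log2(CPM + 1) of the 60 rising (upper) or 60 falling (lower) members in 1 library, plotted against days after pollination for MT (circles) and WT (squares, shifted sideways for clarity), and lines join the group means. The 18 and 32 DAP levels of the integument panels were set by the choice of members, the 28 DAP libraries entered it through the floor alone, and the falling members of the WT integument at 28 DAP spread from 2.262 to 3.693.

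Whether 28 DAP departed from the midpoint of the other stages was tested as the mean over both cultivars, a contrast at right angles to the one that chose the members. Departures in opposite directions in MT and WT can cancel in this mean. A count of 0 therefore does not place 28 DAP at the midpoint in each cultivar. In the integument 0 of 120 members were called, and 0% of all tested features (edgeR). At an unadjusted p under 0.05 there were 6 rising and 5 falling members, against 5.97% of all tested features, and DESeq2 and limma called 0 members. The median log2 difference was 0.15 over the rising members, from -0.95 to 0.98, and -0.18 over the falling members, from -1.94 to 0.81, against 0.02 over all tested features. Over the 3588 upward features that passed the other criteria it was 0.14, close to that of the rising members. Over the 3969 downward features it was 0.01. In the nucellus 0 members and 0% of all tested features were called (edgeR; 5 rising and 3 falling members at an unadjusted p under 0.05, against 12.1% of all tested features; DESeq2 called 1 member and limma 0).

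MT and WT were compared within 28 DAP. In the integument 0 of 120 members and 0% of all tested features were called (edgeR; 0 members with DESeq2 and limma). The falling members had a median log2 fold change of -1 for MT over WT, against -0.02 over all tested features, with 49 of 60 lower in MT. Over the 3969 downward features that passed the other criteria the median was -0.06, with 2282 lower in MT. At an unadjusted p under 0.05, 16 falling and 0 rising members differed, all 16 lower in MT, against 6.7% of all tested features. The rising members had a median of -0.05, against 0.1 over the 3588 upward features that passed the other criteria. Members share libraries, so these counts are not independent pieces of evidence, and the WT spread given above enters all of them.

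In the nucellus at 28 DAP, 0 of 120 members and 0% of all tested features were called between MT and WT (edgeR; 6 rising and 6 falling members at an unadjusted p under 0.05, against 12.4% of all tested features; 0 members with DESeq2 and limma). The medians were -0.04 over the rising and -0.01 over the falling members, against -0.03 over all tested features. Over the upward and downward features that passed the other criteria they were 0.09 and 0.04. Over the 3 stages together, the cultivar difference in the integument was called for 0 members and 0% of all tested features (edgeR; 7 rising and 0 falling members at an unadjusted p under 0.05, against 9.99% of all tested features; 0 members with DESeq2 and limma). Its median was -0.19 over the rising and 0.1 over the falling members, against -0.02 over all tested features. Over the upward and downward features that passed the other criteria it was -0.04 and 0.09, so the falling members lay close to the latter.

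After these 28 DAP medians had been seen, the departure of 28 DAP from the midpoint was compared between MT and WT in the integument. The falling members had a median log2 difference of -1.54, MT minus WT, against 0.02 over all tested features, and 51 of 60 were below 0. Downward features that passed the other criteria leaned the same way, with a median of -0.23 and 2662 of 3969 below 0. The rising members had a median of 0.3, and the 3588 upward features 0.2. After adjustment 1 member was called, a falling one, and 65 features or 0.113% of those tested, 0.00349% higher and 0.11% lower in MT (edgeR). At an unadjusted p under 0.05 there were 29 falling members, all lower in MT, and 8 rising members, against 12.7% of all tested features. The number of members called was 0 without WT integument at 28 DAP, replicate 1, and 9 without replicate 2 of the same group, and it moved by over 1.5 times without 1 of 18 libraries in all.

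The tissues were compared at 28 DAP as integument over nucellus, the mean of both cultivars. The falling members were mostly higher in the integument: 39 of 60 were called higher there and 2 lower (edgeR, adjusted p under 0.05). Of the rising members 16 were called higher in the integument and 7 lower. Among the 3588 upward features that passed the other criteria, 321 were called higher and 327 lower. The unadjusted p was under 0.05 for 28.8% of all tested features, and 17.4% of all tested features were called, 10.2% higher and 7.18% lower in the integument, and among the 3969 downward features that passed the other criteria 13.2% were called higher. The median log2 fold change was 2.82 over the falling and 0.05 over the rising members, against -0.02 over all tested features. A floor in the integument and a limit on nucellus change both act on level, so the share of calls is not independent of the rule. All 6 integument libraries of 28 DAP lay above all 6 nucellus libraries for 22 falling and 10 rising members and for 4.39% of all tested features. The reverse held for 2 falling and 4 rising members and for 2.14% of all tested features. Without the WT nucellus library of 28 DAP that stood apart, 63 members were called in place of 64.

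Among called members with a mean log2 CPM no lower than the median of tested features, c83240_g1, the last falling member by rank, had the largest excess in the integument. The highest fitted log2 fold change of any falling member, 6.35, belonged to a different member. The integument libraries of c83240_g1 at 28 DAP held 5.75, 4.44 and 4.84 CPM in MT and 14.85, 5.31 and 24.09 CPM in WT. The nucellus libraries held 0.38, 0 and 0 CPM in MT and 0.05, 0.11 and 0.17 CPM in WT, and the tissues did not overlap. The fitted log2 fold change was 6.25 ± 0.62 (SE; edgeR, adjusted p = 1.09e-08), and with nucellus libraries at 0 its size depends on the prior count: it was 1.89 on log2(FPKM + 1). Between 18 and 32 DAP the integument libraries of c83240_g1 overlapped in both cultivars. In WT they held 11.51, 9.3 and 12.25 CPM at 18 DAP and 17.67, 5.08 and 3.8 CPM at 32 DAP. Its nucellus M at 18 DAP was 0.29 in MT and 0.075 in WT, so no fall could have passed the limit of 0.4. At 28 DAP the falling member c105632_g1 averaged 15 ± 12.1 CPM in the integument, from 3.5 to 30.5 CPM, and 0.231 ± 0.382 CPM in the nucellus, from 0 to 1 CPM (SD, n = 6 each). Its log2 fold change was 6.16 ± 0.65 (edgeR, adjusted p = 4.91e-08), and with a nucellus library at 0 this too depended on the prior count and scale, at 2.29 on log2(FPKM + 1).

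The opposite order held for c20154_g1, a rising member that was abundant in the nucellus. At 28 DAP its nucellus libraries held 206.86, 291.09 and 208.09 CPM in MT and 115.37, 285.9 and 258 CPM in WT, and its integument libraries 4.93, 9.79 and 8.16 CPM in MT and 2.24, 17.66 and 6.93 CPM in WT. On the log2 scale the integument was lower by a fitted -4.76 ± 0.4 (SE), with an adjusted p of 6.47e-10 in edgeR. The rising member c27489_g1 averaged 108 ± 30.1 CPM over the nucellus libraries of 28 DAP, against 4.06 ± 2.23 CPM over the integument libraries (SD, n = 6 each). Its fitted difference was -4.72 ± 0.4 on the log2 scale, with an adjusted p of 6.47e-10 in edgeR. Levels of c20154_g1 were a median of 2.02 times those of c27489_g1 in the 18 nucellus libraries, from 1.6 to 2.27 times, and 2 times in the 18 integument libraries, from 1.37 to 3.36 times. These CPM ratios are not scaled to feature length. In the WT nucellus both features were also higher at 32 than at 18 DAP, without overlap. There c20154_g1 held 246.05, 225.65 and 144.24 CPM at 18 DAP and 285.39, 292.65 and 280.01 CPM at 32 DAP. The nucellus D of c20154_g1 was 0.2427 in MT and 0.3375 in WT, and that of c27489_g1 -0.0712 and 0.3018, against a limit of 0.4. In the MT integument, replicate 2 of 32 DAP lay within the 18 DAP range for both features.

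Because such members are far higher in the nucellus, the level of other nucellus-high features was read in the same integument libraries, as a description added after the tissue values had been seen. For 320 tested features the lowest of all nucellus libraries exceeded the highest of all integument libraries, 3 rising members and 1 falling member among them. The other 316 summed to between 2400.7 and 3295.5 CPM in the integument libraries of 18 DAP, between 2464.4 and 3189.2 CPM at 28 DAP and between 2946.7 and 3948.3 CPM at 32 DAP, and to between 19077.8 and 47063.5 CPM in the nucellus. The ranges of 18 and 32 DAP overlapped. Their part in the stage difference of the rising members was not tested. In the reverse direction, 790 features were higher in every integument library, 2 rising and 14 falling members among them. The other 774 summed to 15515.4 to 19515.3 CPM in the integument at 18 DAP and to 14854.5 to 20169.6 CPM at 32 DAP.

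**Figure D4:**
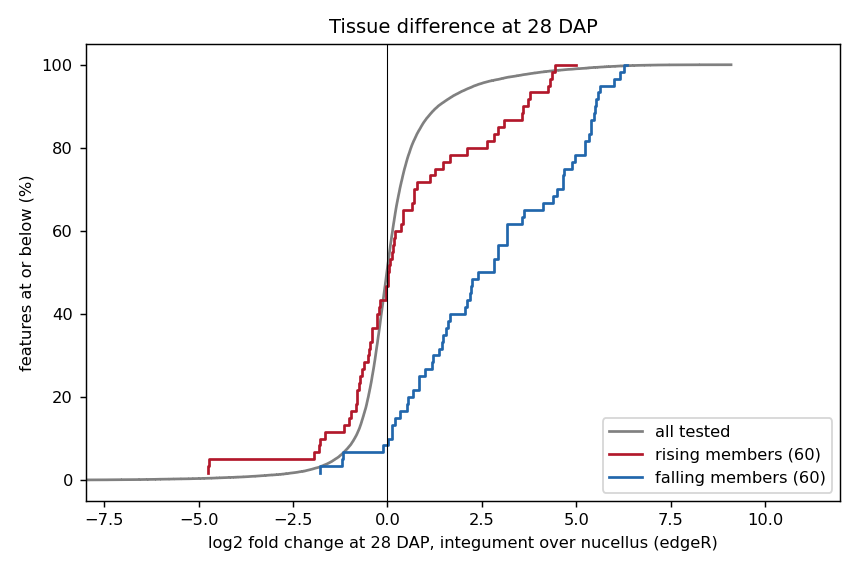
Lines give the percent of features (y axis) whose log2 fold change of integument over nucellus at 28 DAP (x axis, edgeR) is at or below a value, for all 57344 tested features (grey), the rising (red) and the falling members (blue). The median is 2.82 for the falling and 0.05 for the rising members.

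A feature length worked out from deposited counts and FPKM values had a median of 1600 bases over the rising members, with quartiles of 1243 and 2331, and of 1768 over the falling members, with 1204 and 2441. Over the 48801 tested features for which it could be computed the median was 1896 bases, with quartiles of 1369 and 2524, and over the features that passed the other criteria it was 2044 bases, with quartiles of 1515 and 2720. Both member medians and lower quartiles lay below those of either background, a difference that was not tested. Per length, the mean FPKM over all libraries had a median of 4.73 over the rising members, from 0.686 to 107, and of 4.04 over the falling members, from 0.412 to 207. The median over all tested features was 2.92 FPKM, and that over the 7557 features that passed the other criteria was 6.58 FPKM.

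How far the membership depended on single libraries was measured by applying the rule again without each library in turn. Without an integument library of 18 or 32 DAP, between 72 and 101 of the 120 members were chosen again, and without a nucellus library of those stages between 84 and 108. Only 7 members, all falling, were chosen under each of the 36 omissions. Their ranks ran from 4 to 23 and their smaller D from 1.18 to 1.93 in size. No rising member was chosen under each of the 36 omissions, the first of them, c30642_g1, included. With the mean of the 3 libraries in place of the median, 44 members were chosen again, 18 rising and 26 falling.

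**Figure D5:**
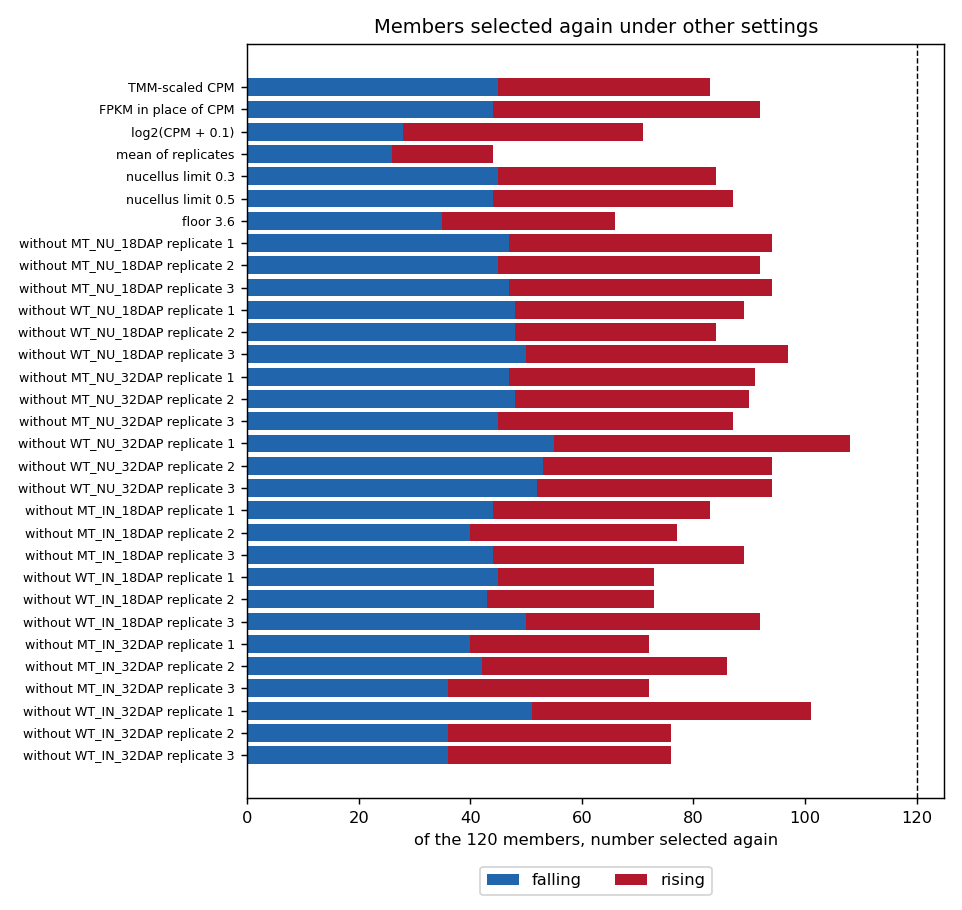
Bars give how many of the 120 members were chosen again when the rule was applied with 1 choice changed (names on the y axis), falling in blue and rising in red. The dashed line marks 120, and the bars run from 44 with the mean of replicates to 108 without WT nucellus at 32 DAP, replicate 1.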

How the data were processed

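Read counts and FPKM (fragments scaled to feature length and library depth) over the same features were deposited by the authors. Tools listed without versions in the submitters' processing notes are RSEM, Bowtie2, cutadapt and DESeq. The reference sequence set was not given in the sources used here. Per the labels' protocols, RNA was amplified from random primers and sequenced on 2 Illumina models, with no record of which library ran on which. The deposited counts were whole numbers and were treated as estimated counts (expected counts of RSEM) rounded by the authors, a step no source records. RSEM divides reads among similar sequences, so a member with a near-identical copy can carry some of its counts.

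The members and lists were chosen with earlier results of these data known. Membership used CPM on column totals. Tests used edgeR 4.0.16 in R 4.3.3, with filterByExpr, TMM factors from 0.592 to 1.227, 1 mean for each of 12 groups over all 36 libraries, robust quasi-likelihood dispersions and Benjamini-Hochberg adjustment over 57344 features. Standard errors came from the F statistic. Alternatives used DESeq2 1.42.0 and limma 3.58.1 on log2(FPKM + 1) and log2(FPKM + 0.1). The scripts were tested on simulated data. Named features were the first 2 members of each set, and, per tested contrast, up to 2 called members in each direction with the largest fold change, an average log2 CPM no lower than the median of tested features and the same sign in both cultivars. Other names are marked as chosen afterwards. Counts carry no molecular identifiers.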

Additional observations from a re-analysis of the deposited data

Results flagged for a closer look

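The falling member c112058_g1 differed between cultivars in how its integument level at 28 DAP departed from the midpoint of 18 and 32 DAP, by a test of the difference itself that was added after the 28 DAP medians had been seen. It did not meet the naming rule and is named as the only member called. Its integument libraries held 8.09, 3.51 and 12.32 CPM at 18 DAP, 0.46, 0.1 and 0.2 CPM at 28 DAP and 2.69, 12.75 and 2.85 CPM at 32 DAP in MT. In WT they held 2.05, 3.52 and 8.61 CPM, then 7.4, 0.06 and 0.38 CPM, then 0.1, 0.05 and 0.05 CPM. The log2 difference, MT minus WT, was -7.13 ± 1.41 (SE; edgeR, adjusted p = 0.0338). MT was low at 28 DAP in all 3 libraries, and WT was high in replicate 1 alone. WT replicates 2 and 3 of 28 DAP did not exceed the highest MT library. The contrast also used 32 DAP, where the WT counts were 2, 1 and 1, so the WT midpoint depended on counts near 0. Without WT replicate 1 of 28 DAP the log2 difference was -3.45 (edgeR, adjusted p = 0.721), and over all 44 other settings the call was lost in 15.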

How the results depend on the processing

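The count of members called between tissues at 28 DAP, 64, was within 1.5 times that value under all settings: 56 to 67 without 1 library, and 54 to 74 under the 9 others, with 65 for the replicate block and 74 when same-numbered captures of both tissues formed the block. Same-numbered captures shared deviations from their group means with r from 0.053 to 0.482 (median 0.276) over 18 pairs. Among the 3 nucellus libraries of the same cultivar and stage, all 18 integument libraries correlated best with that of their own number. Deviations from a group mean sum to 0, so these correlations depend on one another. This is a hint from the data that captures were paired, and what the shared numbers stand for was not tested. The numbers were still not used as pairs in the main tests, because the labels state no pairing and 1 of the 18 pairs, at 0.053, missed the r of 0.1 required of every pair. The block of same-numbered captures was fitted for the tissue contrast at 28 DAP alone. How pairing would change the test of the tissue difference in the stage difference is therefore not known. The replicate block gave 0 members for both midpoint contrasts and for the 3 cultivar contrasts, as without it. These 5 counts were 0 under every setting with 2 exceptions: DESeq2 called 1 member for the nucellus midpoint, and leaving out WT nucellus at 28 DAP, replicate 2, gave 1 for the cultivars in the nucellus, so that the range without 1 library was 0 to 1. For the added cultivar difference of the midpoint departure, 1 member in the main test became 2 with RLE size factors and with column totals, 6 with DESeq2, and 0 without a filter, with the replicate block, with limma on both FPKM scales and with the integument groups alone; without 1 library it ran from 0 to 9. Of the 120 members, 71 were chosen again on log2(CPM + 0.1), 44 with means and 66 with a floor of 3.6, and 72 to 120 without 1 library. The other 4 settings, TMM scaling and FPKM among them, gave 83 to 92. Causes were not tested. With 3 libraries per group, the differences that chose most members were near the spread between libraries in size. The smaller D had a median of 0.888 over the rising and 1.043 over the falling members. The pooled SD within integument groups had medians of 0.711 and 0.766. These are unlike measures, since D compares group medians and the SD describes single libraries.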
